A study of Mus musculus with 22 samples.

Results

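The genes described here are 38 immediate early, feedback and heat shock genes, taken from a list that names them and not from their values. All 38 were found by Ensembl identifier in both count tables, which share 31116 genes. By role they were 8 AP-1 and related bZIP factors, 10 early zinc finger, nuclear receptor and Myc factors, 7 early response and growth arrest genes, 9 feedback inhibitors and 4 heat shock chaperones.

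Immediate early genes are switched on within minutes of a stimulus, with no new protein synthesis, by factors that already wait in the cell such as SRF, CREB, NF-κB and STAT proteins. Their products are transcription factors such as FOS, JUN and EGR1, followed by inhibitors that end the signal: DUSP phosphatases act on MAP kinases, IκBα (Nfkbia) and A20 (Tnfaip3) on NF-κB, SOCS3 on IL-6 family receptors, and ZFP36 proteins on mRNAs with AU-rich elements. HSP70 (Hspa1a, Hspa1b), HSP110 (Hsph1) and the HSP40 Dnajb1 are chaperones induced by HSF1 when proteins misfold. Many of these transcripts are also known to rise while tissue is cut and digested with warm enzyme, which all cells of this study went through. What a cell carried in the lung and what it made before lysis cannot be told apart here.

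The 22 samples are RNA of cells sorted from digested mouse lung. Ly6Chi CD11b+ monocytes gave 4 control samples, 4 at 3 d and 4 at 14 d, and SigF+CD11b- alveolar macrophages gave 4 control samples, 3 at 3 d and 3 at 14 d. All mice were C57BL/6 and carried the I73T mutant allele of surfactant protein C (SP-C), a protein of the alveolar epithelium. In the 3 d and 14 d groups, tamoxifen by gavage had activated an estrogen receptor-controlled Flp-O recombinase at Rosa26, which cuts out a Neo cassette and so raises mutant SP-C in that epithelium. The labels call the controls untreated. The study's methods describe controls in general as oil-treated mutants pooled with tamoxifen-treated mice that lack Flp-O, and for the monocyte libraries the study names oil-treated mutants alone. The kind of control behind each macrophage library was not given in the sources used here. The sort is described as gating out alveolar macrophages, eosinophils, Ly6G+ neutrophils and CD3+ lymphocytes before the monocytes. Nothing in the labels says which samples share a mouse or a pool, so p-values measure the spread between these samples.

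Depth ran from 4610720 to 28789639 counts per sample and was lowest in 14 d macrophages (4610720 to 6838893), and the 38 genes took 0.528% to 1.55% of the counts of a sample. By marker genes, 9 Ly6Chi monocyte genes summed to 8195 to 14297 CPM (counts scaled to a common total per sample) in monocyte samples and to 34.5 to 61.6 in control macrophages, and 10 alveolar macrophage genes summed to 24315 to 50486 CPM in macrophage samples and to 5122 to 18870 in monocyte samples. Some features of the libraries moved with the groups. The 1974 olfactory and vomeronasal receptor genes, taken here as a gauge of background reads, summed to 875 to 1410 CPM in 3 d monocytes and 682 to 1266 CPM in 14 d macrophages, against 16.9 to 236 CPM in the other groups. In the same 2 groups the median change against control of genes above a mean log2 CPM of 5 was -0.55 and -0.56 on the log2 scale under TMM, the scaling that edgeR applies to counts. With TMM factors taken from those higher genes alone, the median of all genes moved by 0.52 in 3 d monocytes and 0.57 in 14 d macrophages, and by 0.06 in 14 d monocytes and 0.08 in 3 d macrophages. Each change is therefore given with the number of scalings, out of 5, under which it was called (TMM, TMM from the higher genes, relative log expression, upper quartile and library size). CPM of single genes include the TMM factor of the sample, and summed CPM of marker and receptor genes do not. The 14 d samples of both cell types had 433 to 3033 counts on Y-linked genes, and control and 3 d samples 0 to 3, so the 14 d time point and sex cannot be told apart. A gene is called higher or lower where edgeR's quasi-likelihood test gave an adjusted p under 0.05 and a fold change above 1.5. Most members named below were picked among called members whose groups did not overlap. Their lack of overlap is therefore no added support, and the share of all genes without overlap was not counted. In bulk RNA, fewer cells with a transcript and less transcript per cell cannot be told apart.

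RefSeq promoters (GRCm38.p6) were found for 33 of the 38 genes; Egr1, Egr3, Ier2, Myc and Nfkbiz were not in the table. In the 250 bases before the start, on either strand, the core of the cAMP response element, TGACG, was found in 16 of 33 members (48.5%) and in 19.8% of the 27025 genes of the table. The full element TGACGTCA, which contains the core, was found in 3 members, Btg2, Dusp1 and Maff (9.09% against 1.77%). The NF-κB motif was found in 10 (30.3% against 8.23%), the CArG box bound by SRF in 3 (9.09% against 1.62%), the AP-1 motif TGANTCA in 2 (6.06% against 7.82%) and the STAT motif TTCNNNGAA in 2 (6.06% against 8.13%). The heat shock element (GAA, TTC and GAA, each 2 bases apart) was in 0 of 33 windows and in 0.514% of all, which says only that these letters are not in this stretch. A match describes the sequence and does not show that a factor was bound.

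The first 4 sequences are shown because their genes were lower in monocytes after tamoxifen, with the TGACG core, or CGTCA on the other strand, in capitals (in Btg2 the full element). They lie at chr15:101266779-101266838 (plus strand), chr1:134079286-134079345 (minus strand), chr19:53529078-53529107 (plus strand, overlapping an exon) and chr12:85473797-85473856 (plus strand), in that order, and are written 5′ to 3′ on the strand of the gene.
Nr4a1: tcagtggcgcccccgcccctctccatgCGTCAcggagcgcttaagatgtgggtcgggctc
Btg2: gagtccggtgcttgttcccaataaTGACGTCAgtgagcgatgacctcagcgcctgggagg
Dusp5: tatgggcactcaCGTCAcaggacgcgcact
Fos: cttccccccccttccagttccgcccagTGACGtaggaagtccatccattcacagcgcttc

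The other 4 belong to genes that were higher after tamoxifen in at least 1 cell type. The motifs do not part the lower from the higher genes. Fos also had an NF-κB match and Tnfaip3 also had the TGACG core, and Fosb, Egr2 and Maff had both. Capitals mark the NF-κB motif in Nfkbia (chr12:55492648-55492707, minus strand), Tnfaip3 (chr10:19015411-19015470, minus strand) and Ier3 (chr17:35821596-35821655, plus strand) and the STAT motif in Socs3 (chr11:117969486-117969545, minus strand).
Nfkbia: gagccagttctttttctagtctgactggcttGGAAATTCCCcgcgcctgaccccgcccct
Tnfaip3: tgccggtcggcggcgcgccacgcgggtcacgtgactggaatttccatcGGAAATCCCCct
Ier3: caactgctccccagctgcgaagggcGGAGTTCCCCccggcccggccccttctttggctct
Socs3: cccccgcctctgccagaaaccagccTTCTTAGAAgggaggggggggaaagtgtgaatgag

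In the Ensembl annotation of GRCm38 the genes that the results turn on are Nr4a1 (ENSMUSG00000023034, chr15:101254269-101274795, plus strand), Btg2 (ENSMUSG00000020423, chr1:134075170-134079120, minus strand), Fos (ENSMUSG00000021250, chr12:85473890-85477273, plus strand), Zfp36l1 (ENSMUSG00000021127, chr12:80107754-80113013, minus strand), Socs3 (ENSMUSG00000053113, chr11:117966079-117970047, minus strand), Tnfaip3 (ENSMUSG00000019850, chr10:19000910-19015657, minus strand) and Nfkbia (ENSMUSG00000021025, chr12:55489410-55492647, minus strand). The windows of Nr4a1, Socs3 and Tnfaip3 lie before the RefSeq start but inside these longer gene models, outside their exons.

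In control cells the AP-1 genes Fos and Junb had the highest levels of the 38 per kilobase of exon in both cell types. Their means were 1191 and 1159 CPM per kilobase in control monocytes and 408 and 412 in control macrophages. In monocytes they were followed by Btg2 (592), an anti-proliferative early gene, by the orphan nuclear receptor Nr4a1 (409) and by the mRNA decay factor Zfp36 (401). In macrophages Jund (280.3), the phosphatase Dusp1 (229) and Ier2 (209) came next. The lowest were Egr3 (0.169) and Maff (0.597) in monocytes and Hspa1a (1.3) and Egr3 (1.41) in macrophages. The tables of the cell types were scaled separately.

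**Figure D1:**
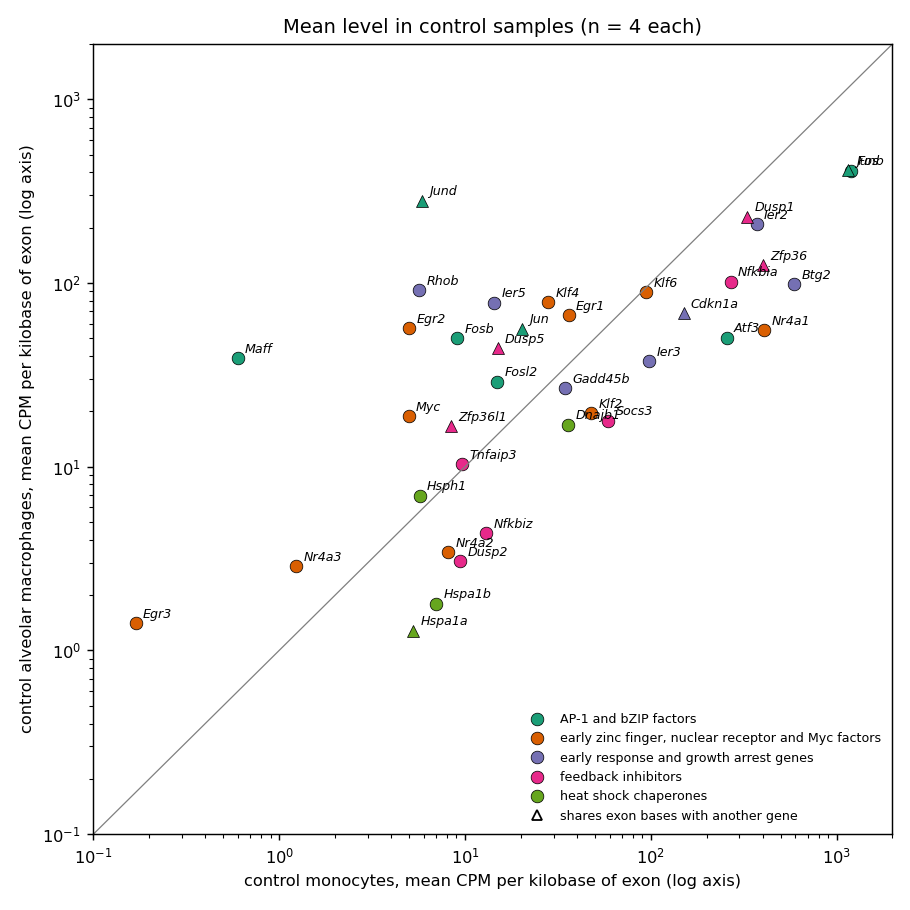
Mean level of each of the 38 genes in control monocytes (horizontal) and control alveolar macrophages (vertical), in CPM per kilobase of exon on log axes, n = 4 each; colours give roles, triangles mark genes that share exon bases with another gene, and the line marks equal values. Maff, Jund, Rhob and Egr2 lie far above the line, and Nr4a1, Btg2, Atf3, Hspa1a and Hspa1b below it.

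Control macrophages and control monocytes were compared in a joint fit of all 22 samples. Of the 38 genes 11 were called higher in macrophages and 19 lower, 9 and 16 of them under all 5 scalings, beside 44.2% of all 26692 genes tested (24.5% higher and 19.7% lower). The share of higher genes among all calls was 55.5% with TMM and 43.8% to 71.2% over the other scalings, and by library size the members split into 14 higher and 16 lower. The AP-1 and bZIP factors were split, with 3 higher and 3 lower of 8. Fos had 901, 829, 897 and 1214 CPM in control macrophages and 3599, 3614, 1918 and 2074 CPM in control monocytes (-1.91 ± 0.20, adjusted p = 1.3e-08, a log2 difference ± SE, as throughout), and Junb was lower in macrophages too (-1.87 ± 0.25, adjusted p = 1.4e-06). Fosb was higher in macrophages, at 258, 267, 328 and 399.6 CPM against 65.7, 56.8, 52.4 and 52.4 CPM (2.10 ± 0.25, adjusted p = 7.4e-08). Atf3, a stress-induced bZIP repressor, had 89.4 to 120.2 CPM against 324 to 763 CPM and was 6.56-fold lower in macrophages (-2.71 ± 0.25, adjusted p = 9.0e-10). Jun was not called (1.11 ± 0.51, adjusted p = 0.088).

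Maff, a small Maf protein, had the largest difference. It had 95.9, 103, 90.9 and 115 CPM in the control macrophages and 0.497, 0.645, 2.57 and 2.48 CPM in the control monocytes (5.63 ± 0.52, adjusted p = 1.5e-08). The small GTPase Rhob had 191, 196, 223 and 252 CPM against 5.97, 5.92, 18.6 and 22.8 CPM (3.64 ± 0.47, adjusted p = 2.4e-06), and the zinc finger factor Egr2 had 235, 183, 144 and 207 CPM against 13.5, 21.0, 17.0 and 16.4 CPM (3.13 ± 0.46, adjusted p = 1.2e-05). For these 3 genes every macrophage sample lay above every monocyte sample. Egr3 (2.67), Ier5 (2.06), Myc (1.55) and Klf4 (1.11) were also higher in macrophages under all 5 scalings, and Egr1 was not called (0.52 ± 0.50, adjusted p = 0.43).

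Nr4a1 was the member with the largest difference in the other direction. It had 187, 215, 152 and 223 CPM in control macrophages and 1511, 1782, 1085 and 1356 CPM in control monocytes (9.56-fold lower; -3.26 ± 0.35, adjusted p = 1.1e-07). Btg2 had 279.8, 258, 274 and 270.4 CPM against 1583, 2268, 1129 and 1512 CPM (7.75-fold lower). Among the feedback inhibitors, Zfp36 (-2.05), Socs3 (-2.13 ± 0.52, adjusted p = 0.0024), Dusp2 (-2.01), Nfkbiz (-1.97) and Nfkbia (-1.79) were lower in macrophages under all 5 scalings. The chaperones Hspa1a (-2.40 ± 0.41, adjusted p = 3.2e-05), Hspa1b (-2.33 ± 0.38, adjusted p = 1.1e-05) and Dnajb1 (-1.45 ± 0.17) were lower too, and Hsph1 was not called (-0.08 ± 0.32). Hspa1a and Hspa1b are near identical copies, so how reads were split between them is uncertain.

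Cell type and count table cannot be told apart in this comparison, and the tables did not count overlapping genes alike. Of 114 genes that share at least 90% of their exon bases with a gene on the other strand and had at least 10 counts in all macrophage samples, 78 (68.4%) had 0 counts in all 12 monocyte samples, against 1 of 7073 genes that share no exon base (0.0141%). Gm11175 covers 877 exon bases (52.6%) of Jund on the other strand and had 1708 to 6943 counts in macrophage samples and 0 in every monocyte sample. The log2 difference of 5.20 ± 0.55 for Jund (434 to 504 CPM against 3.73 to 16.4 CPM) therefore cannot be told apart from the counting. Of the other 8 members with shared exon bases, Zfp36l1 shares 55.9%, Dusp5 22.1% and Hspa1a 19% of them, and Jun, Junb, Dusp1, Zfp36 and Cdkn1a 7.68% or less. Maff, Rhob, Egr2, Nr4a1, Btg2, Fos and Atf3 are not among them.

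**Figure D2:**
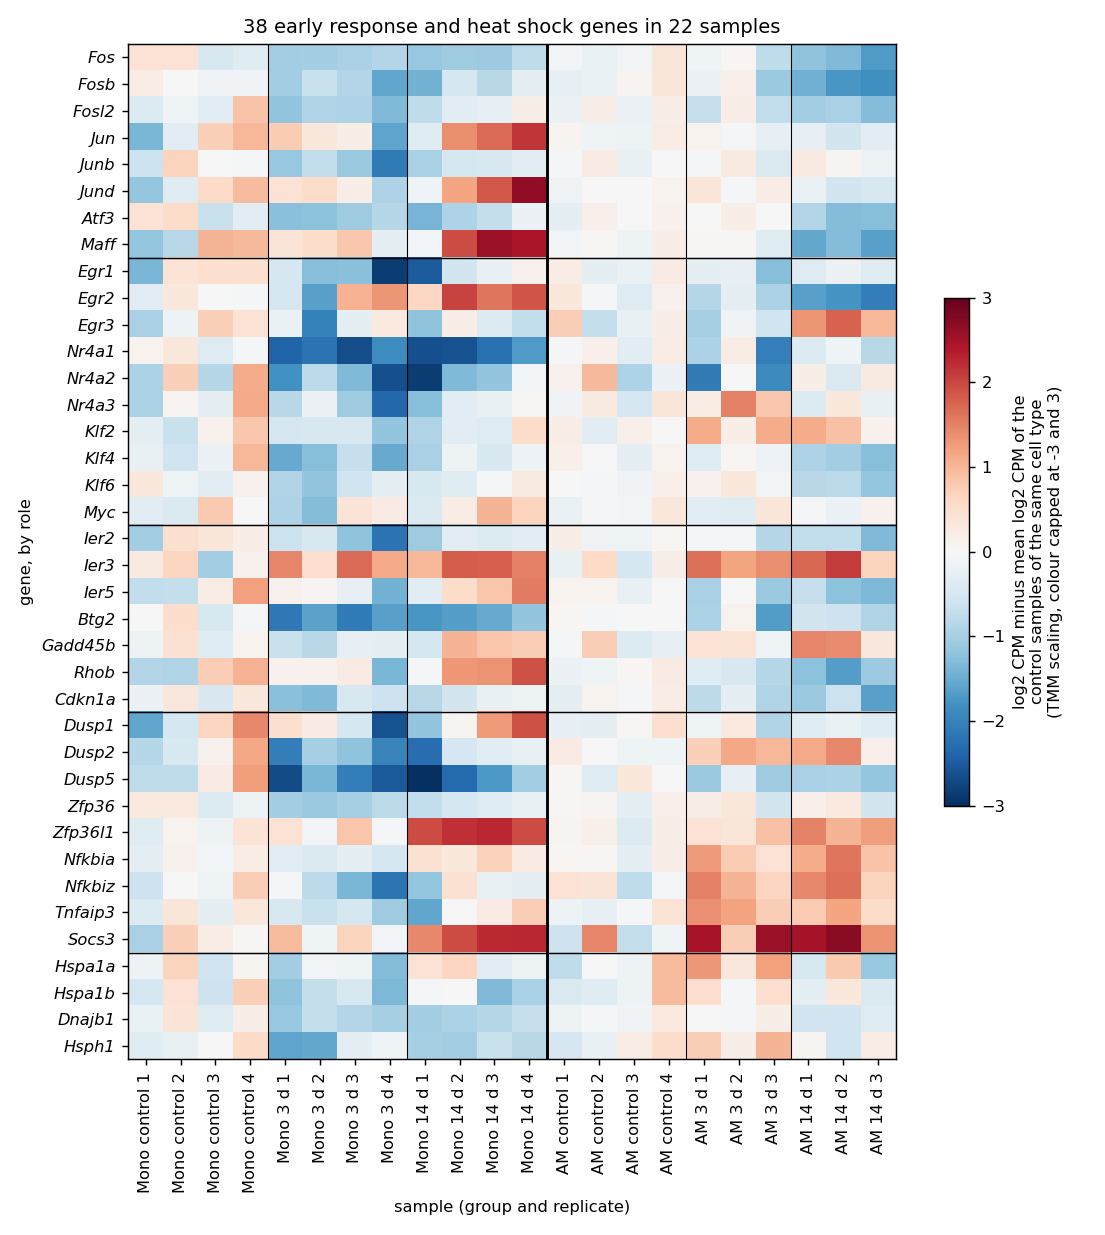
Log2 CPM of the 38 genes (rows, by role) in the 22 samples (columns; Mono, monocyte; AM, alveolar macrophage), less the mean log2 CPM of the control samples of the same cell type, under TMM scaling, with the colour capped at -3 and 3. Nr4a1, Btg2 and Dusp5 are blue in all 8 monocyte samples after tamoxifen, Zfp36l1 and Socs3 are red in all 4 monocyte samples at 14 d, and Fos, Fosb, Egr2 and Maff are blue in all 3 macrophage samples at 14 d.

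In monocytes 3 d after tamoxifen, Nr4a1, Btg2, Dusp5, Junb and Klf4 were lower and Ier3 was higher than in control under all 5 scalings. With TMM, 17 of the 38 were called lower and 1 higher, beside 51.2% of all 22353 genes tested (14.4% lower and 36.8% higher). With TMM factors from higher genes 5 were called lower and 3 higher, and the share of higher genes among all calls went from 71.8% to 95.7%. By role, with TMM, 5 of 8 AP-1 and bZIP factors, 4 of 10 zinc finger and nuclear receptor factors, 3 of 7 early response genes, 3 of 9 feedback inhibitors and 2 of 4 chaperones were lower.

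Nr4a1 had 1511, 1782, 1085 and 1356 CPM in the control samples and 266, 304, 222 and 380.2 CPM at 3 d, 4.89-fold lower (-2.29 ± 0.24, adjusted p = 0.00014; -1.77 with TMM factors from higher genes). Btg2 had 1583, 2268, 1129 and 1512 CPM in control and 356, 513, 369.9 and 507 CPM at 3 d (-1.89 ± 0.21, adjusted p = 0.00015; -1.37). Dusp5, a nuclear phosphatase of ERK, had 18.4, 18.2, 37.2 and 74.5 CPM in control and 4.75, 11.9, 7.26 and 5.32 CPM at 3 d (-2.35 ± 0.57, adjusted p = 0.0050; -1.84). Every 3 d sample of these 3 genes lay below every control sample.

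The AP-1 member Junb had 1605, 4015, 2568 and 2475 CPM in control and 1155, 1522, 1169 and 580.2 CPM at 3 d (-1.27 ± 0.29, adjusted p = 0.0033; -0.75 with TMM factors from higher genes). Klf4, a zinc finger factor of monocyte differentiation, had 66.5, 51.0, 69.1 and 155 CPM and 27.1, 32.1, 47.9 and 27.0 CPM (-1.35 ± 0.32, adjusted p = 0.0039; -0.83). Dusp2, a nuclear MAP kinase phosphatase, had 9.03, 11.9, 18.0 and 36.7 CPM and 3.78, 8.17, 7.04 and 4.00 CPM and was called under 4 of the scalings (-1.72 ± 0.49, adjusted p = 0.0099). For these 3 genes too the groups did not overlap, which the rule for naming them required. Ier3, an early gene that affects cell survival, was the member that rose, from 122, 159.6, 49.4 and 112 CPM to 281, 144, 330.2 and 225 CPM (1.15 ± 0.32, adjusted p = 0.0092), and 1 sample at 3 d lay within the range of the controls.

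Fos had 3599, 3614, 1918 and 2074 CPM in control and 1304, 1316, 1364 and 1454 CPM at 3 d. The groups did not overlap, but the difference of -1.04 ± 0.19 (adjusted p = 0.0013) was -0.52 with TMM factors from higher genes and was called under 3 scalings. Atf3 (-1.19 ± 0.28, adjusted p = 0.0038) was called under 4, and Hspa1b (-1.01 ± 0.36, adjusted p = 0.029) under TMM alone of the 5 and not without control replicate 2 or 4 or 3 d replicate 1 or 4. Jun (-0.13 ± 0.61, adjusted p = 0.88), Egr1 (-1.42 ± 0.59, adjusted p = 0.059), Hspa1a (-0.61 ± 0.34, adjusted p = 0.13) and Socs3 (0.31 ± 0.32, adjusted p = 0.43) were not called.

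In monocytes at 14 d, Nr4a1, Btg2, Dusp5, Fos and Dnajb1 were lower and Zfp36l1, Socs3 and Ier3 were higher than in control, each under all 5 scalings. These 8 were all the members called with TMM, beside 8.56% of all genes (5.34% lower and 3.22% higher). The other scalings moved the median of all genes by 0.10 at most and the share of higher genes among all calls from 37.6% to at most 48.6% (library size).

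Nr4a1 had 227, 230.1, 301 and 436 CPM at 14 d, 4.80-fold lower than control (-2.26 ± 0.24, adjusted p = 4.7e-05). Btg2 had 468, 501, 556 and 697 CPM (-1.55 ± 0.21, adjusted p = 0.00031) and Fos 1229, 1274, 1263 and 1584 CPM (-1.07 ± 0.20, adjusted p = 0.0028). Dnajb1, the HSP40 partner of HSP70, had 97.5, 147, 87.9 and 128 CPM in control and 55.1, 57.9, 62.2 and 70.0 CPM at 14 d (-0.91 ± 0.17, adjusted p = 0.0037). All 4 samples at 14 d lay below all controls for each of these genes. Dusp5 had 2.41, 6.06, 9.31 and 15.0 CPM, also below the controls (-2.17 ± 0.57, adjusted p = 0.030), but its call was lost without control replicate 3 or 4 or without 14 d replicate 1, 2 or 3.

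Zfp36l1, which like Zfp36 binds AU-rich elements, had 19.1, 26.6, 22.2 and 32.6 CPM in control, 33.4, 23.1, 43.8 and 23.6 CPM at 3 d and 95.8, 113, 118 and 95.2 CPM at 14 d, 4.19-fold higher than control (2.07 ± 0.23, adjusted p = 6.1e-05). Socs3 had 80.6, 258, 185 and 161 CPM in control, 306, 144, 249 and 150.1 CPM at 3 d and 430.1, 616, 744 and 754 CPM at 14 d, 3.72-fold higher than control (1.89 ± 0.34, adjusted p = 0.0024). Ier3 had 204, 361, 354 and 293 CPM at 14 d (1.45 ± 0.32, adjusted p = 0.011). For these 3 genes all 14 d samples lay above all controls.

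Jun (1.21 ± 0.62, adjusted p = 0.28), Egr1 (-0.68 ± 0.58, adjusted p = 0.55), Atf3 (-0.82 ± 0.28, adjusted p = 0.086), Hspa1a (0.13 ± 0.33, adjusted p = 0.86) and Hspa1b (-0.60 ± 0.36, adjusted p = 0.36) were not called at 14 d against control.

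Between 3 d and 14 d, Zfp36l1 (1.77 ± 0.22, adjusted p = 0.00037) and Socs3 (1.58 ± 0.33, adjusted p = 0.0030) were again higher under all 5 scalings. With TMM 9 members were higher, beside 46.5% of all genes called and 12% called higher, and by edgeR 0 were lower, with 0 lower at an unadjusted p under 0.05 and 0 lower by DESeq2. With TMM factors from higher genes 2 were higher, and the share of higher genes among all calls went from 25.8% to 4.28%. Nfkbia went from 348, 317, 351 and 302 CPM to 593, 537, 699 and 513 CPM and Fosl2, a Fos relative, from 59.5, 72.8, 70.8 and 53.9 CPM to 79.9, 106, 114 and 152 CPM, without overlap and each called under 2 scalings (0.83 ± 0.14 and 0.81 ± 0.26). Fosl2 lost its call without 3 d replicate 1 or 3 or 14 d replicate 4, and the count of 9 was 4 without 14 d replicate 4 and 18 without 14 d replicate 1. Fos (-0.02 ± 0.19), Jun (1.34 ± 0.62), Egr1 (0.74 ± 0.59), Atf3 (0.36 ± 0.28), Hspa1a (0.74 ± 0.34) and Hspa1b (0.41 ± 0.36) were not called.

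T and NK cell genes moved with the lower members: the 10 listed summed to 301 to 1263 CPM in control monocytes, 22.4 to 330 CPM at 3 d and 18.4 to 39.8 CPM at 14 d, none of them at 0 in any sample, and 6 of 10 were called lower at 3 d and 4 of 10 at 14 d. The 4 B cell genes, at 63.5 to 89.8 CPM in control, 34.3 to 55.1 CPM at 3 d and 20.6 to 47.8 CPM at 14 d, were all called lower at both times. These values are from cells sorted with CD3+ and Ly6G+ cells gated out. Within the controls the order of the replicates differed between members. Replicates 1 and 2, with 301 and 441 CPM of T and NK cell genes, had the higher Nr4a1, Fos, Atf3 and Zfp36, and replicates 3 and 4, with 1263 and 1143 CPM, the lower. Dusp5, Dusp2, Klf2 and Klf4 were highest in replicate 4, at 74.5, 36.7, 144 and 155 CPM. The 9 neutrophil genes were higher after tamoxifen too: they summed to 170.9 to 274 CPM in control, 279 to 1686 CPM at 3 d and 643 to 1517 CPM at 14 d. Of the 9, 3 were called higher at 3 d and 1 at 14 d, and up to 3 were at 0 in a control sample. Zfp36l1 and Socs3 were not called higher at 3 d. Within 14 d the neutrophil sums fell over replicates 1 to 4 (1517, 1104, 703 and 643 CPM). Socs3 (430 CPM) and Ier3 (204 CPM) were lowest in replicate 1 and Zfp36l1 (95.2 CPM) in replicate 4. The 10 alveolar macrophage genes summed to 6850 to 12969.9 CPM in control, 5122 to 11068 CPM at 3 d (5 of 10 lower) and 15526 to 18870 CPM at 14 d (1 higher and 1 lower), and of the 9 Ly6Chi genes 1 was higher and 2 lower at 3 d and 1 higher and 3 lower at 14 d. At 3 d 2 of 5 fibroblast and 2 of 5 endothelial genes were also higher, and 1 higher and 4 lower of 6 epithelial genes tested. These marker counts stand beside 36.8% of all genes called higher and 14.4% lower at 3 d. At 14 d the shares of all genes were 3.22% higher and 5.34% lower. The part of other cells in these changes was not tested.

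**Figure D3:**
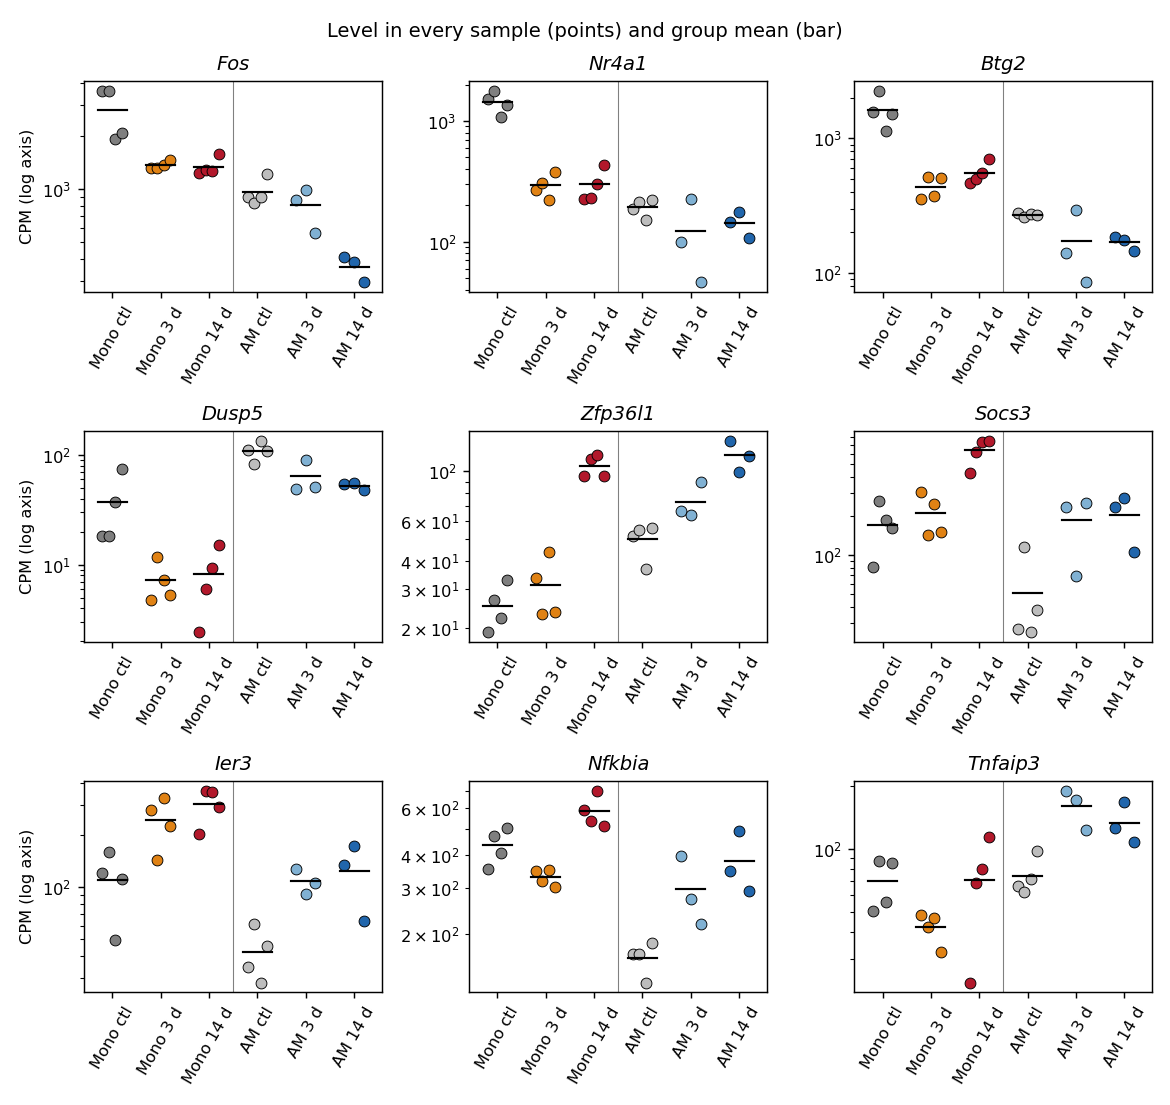
CPM (log axes, each panel with its own range) of 9 members in every sample (points) with the group mean (bar), for monocytes (Mono) and alveolar macrophages (AM) in control (ctl), at 3 d and at 14 d; the cell types were scaled in separate tables. Nr4a1, Btg2 and Dusp5 are lower in all monocyte samples after tamoxifen than in control, Zfp36l1 is higher in all monocyte samples at 14 d, and Tnfaip3 and Nfkbia are higher in all macrophage samples after tamoxifen than in control.

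Several members varied more between the monocyte samples of 1 group than between groups. Dusp1, which ends p38 and JNK signalling, had 282, 576, 1296 and 2236 CPM in control, 1163, 989.8, 576 and 135 CPM at 3 d and 366, 869.7, 2018 and 3122 CPM at 14 d. Jun had 20.6, 42.8, 87.9 and 107 CPM, 90.5, 67.1, 60.9 and 17.8 CPM and 41.9, 142, 175 and 239 CPM in the same groups. Control replicate 1, 3 d replicate 4 and 14 d replicate 1 had the lowest Jun, Jund, Dusp1, Ier5 and Egr1 of their groups. Rhob and Maff were also lowest in 3 d replicate 4 and 14 d replicate 1, while in control both replicates 1 and 2 were low (5.97 and 5.92 CPM of Rhob against 18.6 and 22.8). Fos and Nfkbia varied less within 3 d, where they had 1304 to 1454 and 302 to 351 CPM. Fos was not lowest in 3 d replicate 4, but Nfkbia was. Jun, Jund, Dusp1, Ier5, Rhob and Maff were not called against control at either time, with standard errors of 0.49 to 0.81 on the log2 scale. In control macrophages the same genes varied less, Jun from 159.8 to 209 CPM and Dusp1 from 603 to 1049.7 CPM.

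**Figure D4:**
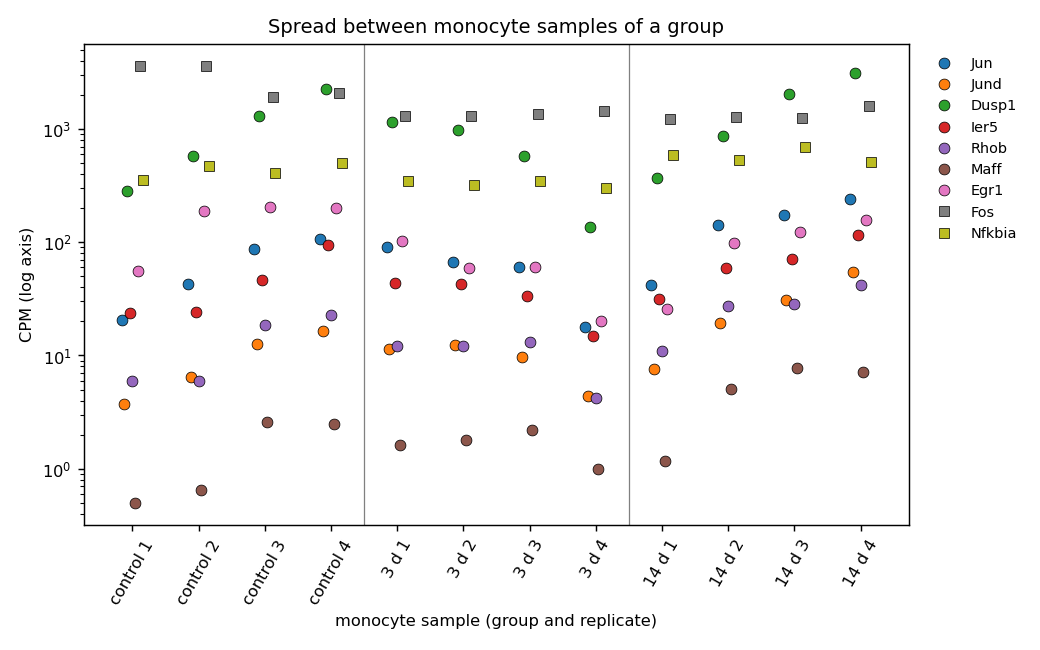
CPM (log axis) of 9 members in the 12 monocyte samples (each column is 1 sample; vertical lines part the groups; replicates have no order). Jun, Jund, Dusp1, Ier5, Rhob, Maff and Egr1 (circles) are low together in 3 d replicate 4 and 14 d replicate 1, and Fos and Nfkbia (squares) stay level within 3 d.

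In alveolar macrophages at 3 d, the NF-κB inhibitor Tnfaip3 was the 1 member called with TMM, beside 1.27% of 20944 genes tested and 1.05% called higher. It had 66.3, 62.3, 71.6 and 97.9 CPM in control and 189, 170.5 and 122 CPM at 3 d, 2.15-fold higher and without overlap (1.11 ± 0.19, adjusted p = 0.010). It was called under all 5 scalings and lost without control replicate 1. By edgeR 0 members were lower, with 6 lower at an unadjusted p under 0.05 and 2 lower by DESeq2, which called 8 higher. This count was unstable: it was 0 without control replicate 1 and 12 without 3 d replicate 2.

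Nfkbia had 168, 168, 131 and 185 CPM in control and 395, 273 and 219 CPM at 3 d, and was called under the other 4 scalings but not with TMM (0.86 ± 0.21, adjusted p = 0.054). Ier3 had 34.7, 61.2, 28.1 and 45.7 CPM and 127, 91.8 and 106 CPM (1.35 ± 0.32, adjusted p = 0.077). Dusp2 (0.97 ± 0.26, adjusted p = 0.084), Nfkbiz (1.03 ± 0.30, adjusted p = 0.13), Klf2 (0.86 ± 0.24, adjusted p = 0.11) and Zfp36l1 (0.56 ± 0.17, adjusted p = 0.13) likewise had every 3 d sample above every control sample and were not called with TMM. These 6 genes were chosen after their values were seen. The share of all genes with such a separation was not counted, so their number has no background to be read against. Of the marker lists, 1 of 7 neutrophil genes tested and 1 of 5 endothelial genes were higher at 3 d, beside 1.05% of all genes. Of 7 epithelial genes 1 was lower, beside 0.224% of all genes. The summed levels of some lists were higher at 3 d than in control without overlap: Ly6Chi monocyte genes had 101 to 228 CPM against 34.5 to 61.6, epithelial genes 441 to 760.3 against 148 to 231, dendritic cell genes 71.0 to 95.5 against 19.7 to 32.3, B cell genes 158 to 474 against 48.5 to 133 and eosinophil genes 12.2 to 95.1 against 6.91 to 10.4. Their part in these values was not tested.

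The early factors Fos (-0.26 ± 0.20, adjusted p = 0.60), Jun (-0.06 ± 0.14, adjusted p = 0.90), Egr1 (-0.54 ± 0.22, adjusted p = 0.26) and Atf3 (0.06 ± 0.14, adjusted p = 0.91) were not called at 3 d. Hspa1a (0.90 ± 0.44, adjusted p = 0.37) and Hspa1b (0.22 ± 0.35, adjusted p = 0.83) were not called either, nor was Socs3 (1.85 ± 0.69, adjusted p = 0.29), which had 27.1, 115, 25.5 and 37.9 CPM in control and 233, 69.8 and 253 CPM at 3 d. The 3 d samples differed among themselves: replicate 3 had the lowest Fos (561 CPM), Egr1 (123), Nr4a1 (46.1) and Btg2 (84.8), and replicate 2 had Fos (989) and Socs3 (69.8) within the range of the controls.

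In alveolar macrophages at 14 d, 6 of the 9 listed feedback inhibitors were called higher, and Fos, Fosb, Egr2, Maff and Rhob were lower than in control. With TMM 10 members were called higher and 13 lower, 60.5% of the 38. Close to this share, 62.3% of all genes were called, 39.4% higher and 22.9% lower. All 10 higher members and 5 of the 13 lower ones were called under all 5 scalings, and with TMM factors from higher genes the calls were 11 higher and 5 lower, while the share of higher genes among all calls went from 63.3% to 89.4%. Of the 10, 6 were feedback inhibitors (Zfp36l1, Nfkbia, Nfkbiz, Tnfaip3, Dusp2 and Socs3), of which the list holds 9, and the rest were Ier3, Egr3, Klf2 and the stress gene Gadd45b.

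Zfp36l1 had 51.6, 54.6, 36.8 and 55.8 CPM in control and 137, 99.7 and 116 CPM at 14 d (1.24 ± 0.17, adjusted p = 2.9e-05; 1.82 with TMM factors from higher genes). Nfkbia had 348, 493 and 293 CPM at 14 d (1.21 ± 0.21, adjusted p = 0.00014; 1.77) and Tnfaip3 125, 166 and 108 CPM (0.84 ± 0.19, adjusted p = 0.0014; 1.40). Nfkbiz, an atypical nuclear IκB, had 28.0, 27.1, 12.1 and 20.2 CPM in control and 56.2, 65.3 and 33.0 CPM at 14 d (1.24 ± 0.31, adjusted p = 0.0034; 1.78). For these 4 genes every 14 d sample lay above every control sample.

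Ier3 had 135, 173 and 64.2 CPM at 14 d (1.55 ± 0.33, adjusted p = 0.0016; 2.09), and the zinc finger factor Egr3 had 9.72, 3.5, 4.92 and 6.64 CPM in control and 14.7, 20.0 and 11.7 CPM at 14 d (1.32 ± 0.32, adjusted p = 0.0020; 1.87), both without overlap. Socs3 had 234, 274 and 106 CPM, with 1 sample below the highest control (2.00 ± 0.70, adjusted p = 0.033). Its call was kept without 3 of the 10 macrophage samples (control replicate 2, 3 d replicate 2 or 14 d replicate 3) and lost without any of the other 7. Klf2 was lost without 3 d replicate 2 or 14 d replicate 1 or 2, and Gadd45b without 3 d replicate 2 or 14 d replicate 2.

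Fos had 901, 829, 897 and 1214 CPM in control and 408, 381 and 294 CPM at 14 d, 2.66-fold lower (-1.41 ± 0.20, adjusted p = 3.8e-05; -0.84 with TMM factors from higher genes). Fosb had 258, 267, 328 and 399.6 CPM and 113, 91.5 and 85.7 CPM (-1.69 ± 0.26, adjusted p = 9.4e-05; -1.12), and Egr2 235, 183, 144 and 207 CPM and 61.5, 55.8 and 44.6 CPM (-1.83 ± 0.20, adjusted p = 4.4e-06; -1.27). Maff had 34.9, 41.1 and 32.8 CPM at 14 d (-1.48 ± 0.15, adjusted p = 2.4e-06; -0.92) and Rhob 91.2, 68.3 and 101 CPM (-1.31 ± 0.17, adjusted p = 1.8e-05; -0.72). All 14 d samples lay below all controls for these 5 genes. Atf3 had 89.4, 120.2, 106 and 117 CPM in control and 58.8, 43.5 and 44.1 CPM at 14 d (-1.15 ± 0.15, adjusted p = 2.0e-05; -0.58) and was called under 4 scalings.

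Jun (-0.37 ± 0.15, adjusted p = 0.033, under the fold threshold), Egr1 (-0.32 ± 0.21, adjusted p = 0.19), Hspa1a (-0.16 ± 0.47, adjusted p = 0.78) and Hspa1b (-0.22 ± 0.37, adjusted p = 0.61) were not called, and all 4 values change sign with TMM factors from higher genes (0.21, 0.25, 0.38 and 0.34). Genes of the marker lists were called too, beside 39.4% of all genes called higher and 22.9% lower. Of 9 neutrophil genes, 7 were tested and 6 were higher and 1 lower in 14 d macrophages, with sums of 492 to 1772 CPM against 64.7 to 195 CPM in control. Of 9 Ly6Chi monocyte genes 6 were higher, with sums of 273 to 547 CPM against 34.5 to 61.6 CPM. All 5 fibroblast genes were higher (175 to 425 CPM against 14.5 to 20.7), as were 3 of 4 eosinophil genes (51.9 to 171 CPM against 6.91 to 10.4). Of 5 dendritic cell genes 2 were higher (28.2 to 101 CPM against 19.7 to 32.3). Of 5 endothelial genes 3 were higher and 1 lower, with overlapping sums (95.8 to 109.5 CPM against 94.8 to 140). Of 7 epithelial genes 1 was higher and 3 lower, also with overlapping sums (140 to 273 CPM against 148 to 231). Of the 10 alveolar macrophage genes 7 were lower with TMM. Their sums, which do not include the TMM factor, were not lower (28018 to 33420 CPM against 24738.5 to 28433 in control). Of the members higher at 14 d, Ier3, Socs3, Nfkbia, Nfkbiz, Dusp2, Klf2 and Gadd45b had a higher mean in control monocytes than in control macrophages. Zfp36l1 (25.1 against 49.7 CPM), Egr3 (0.746 against 6.19) and Tnfaip3 (69.9 against 74.5) had a lower one. Of the members lower under all 5 scalings, Fos was higher in control monocytes. Fosb (56.8 against 313 CPM), Egr2 (17.0 against 192), Maff (1.55 against 101) and Rhob (13.3 against 215) were lower there. The part of other cells in the changes at 14 d was not tested.

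Between 3 d and 14 d in macrophages, Egr3 (1.96 ± 0.36), Zfp36l1 (0.68 ± 0.19) and Gadd45b (0.91 ± 0.34) were higher and Fos (-1.16 ± 0.21), Fosb (-1.38 ± 0.27), Egr2 (-1.13 ± 0.21), Atf3 (-1.21 ± 0.16) and Maff (-1.39 ± 0.16) were lower under all 5 scalings. Zfp36l1 lost its call without 3 d replicate 1 or 2 or 14 d replicate 1, and Gadd45b without control replicate 4, any 3 d replicate or 14 d replicate 1 or 2. With TMM 3 members were higher and 13 lower, beside 56.4% of all genes (36.3% higher and 20.0% lower), and with TMM factors from higher genes 6 and 5 (64.5% and 89.7% of all calls were higher). The small Maf protein Maff had 103, 104 and 78.6 CPM at 3 d, against 90.9 to 115 CPM in control and 32.8 to 41.1 CPM at 14 d. Klf6, a zinc finger factor, had 425, 485 and 368 CPM at 3 d and 217, 220.4 and 175 CPM at 14 d (-1.06 ± 0.15, adjusted p = 0.00010) and was called under 4. Jun (-0.31 ± 0.15), Egr1 (0.22 ± 0.23), Hspa1a (-1.06 ± 0.50), Hspa1b (-0.44 ± 0.39) and Socs3 (0.15 ± 0.74) were not called.

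**Figure D5:**
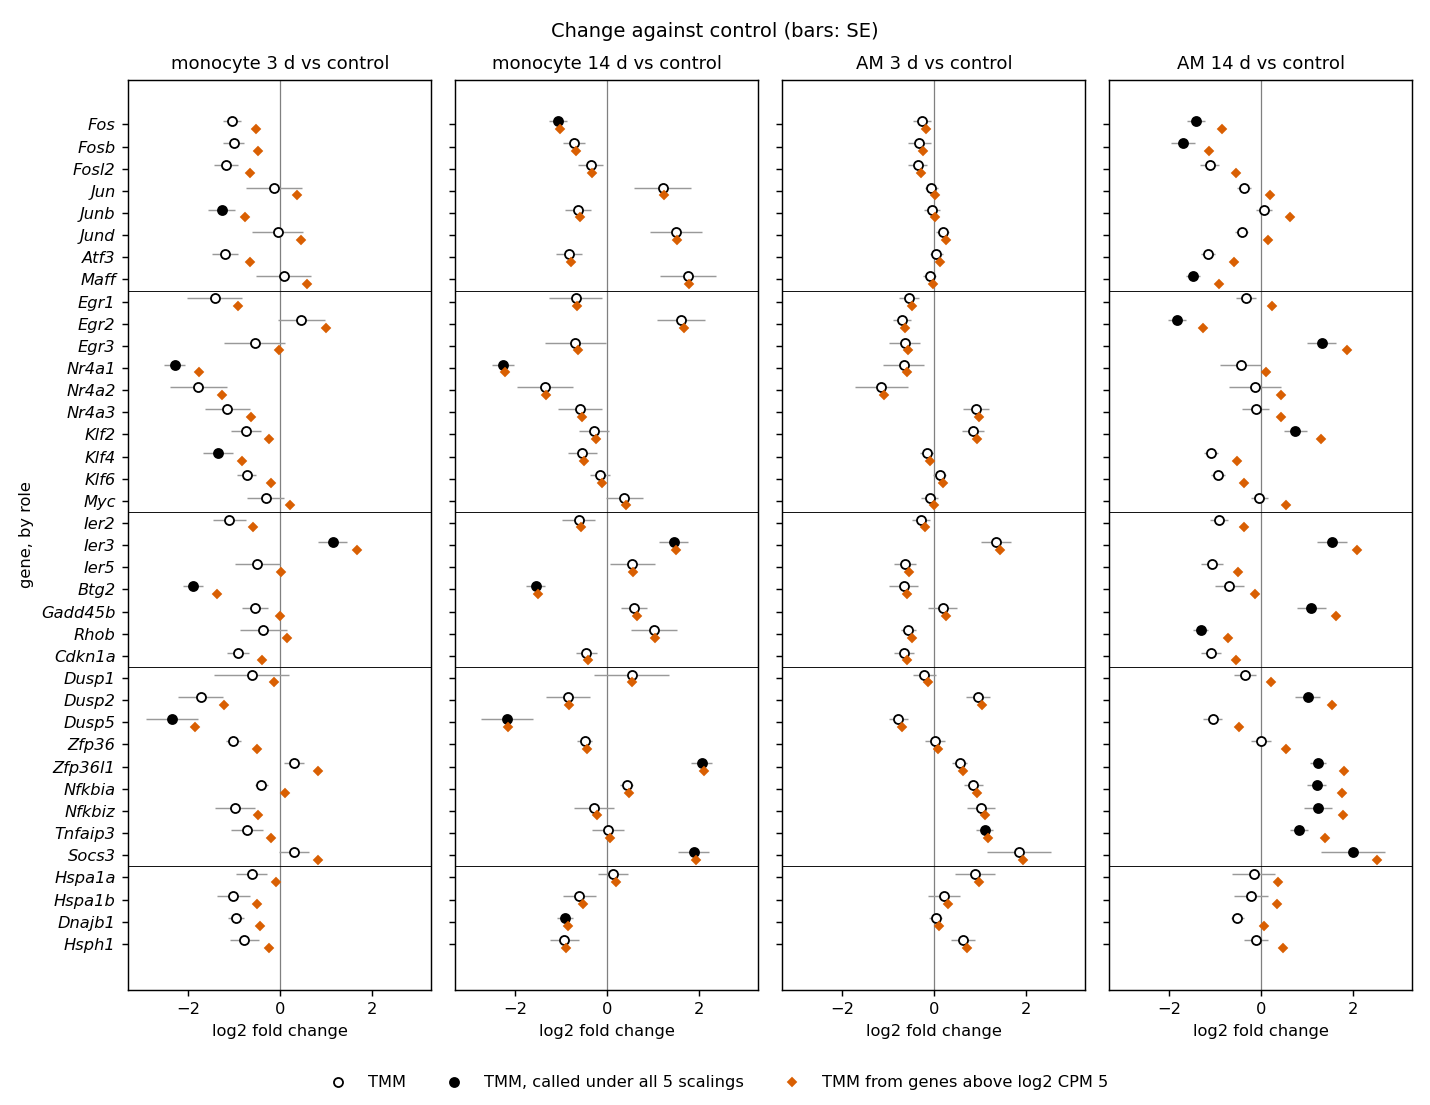
Log2 fold change against control of the 38 genes (rows, by role) in monocytes and alveolar macrophages (AM) at 3 d and 14 d. Circles with SE bars are TMM values, filled where the gene was called under all 5 scalings, and diamonds are values with TMM factors from genes above a mean log2 CPM of 5. The diamonds sit well to the right of the circles in monocytes at 3 d and macrophages at 14 d, where the median of all genes moved by 0.52 and 0.57, and close to them in the other panels.

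Whether the change after tamoxifen differs between the cell types was tested as an interaction, the log2 change in macrophages less that in monocytes. At 3 d, Dusp2 (2.53 ± 0.60, adjusted p = 0.0087), Tnfaip3 (1.65 ± 0.46, adjusted p = 0.019) and Nfkbia (1.09 ± 0.26, adjusted p = 0.0076) had a larger value in macrophages under all 5 scalings. The changes behind them were 0.97, 1.11 and 0.86 in macrophages and -1.72, -0.72 and -0.40 in monocytes. With TMM 11 members were larger in macrophages, beside 18.7% of 26692 genes called with 3.51% called larger and 15.2% smaller, and by edgeR 0 were smaller, with 1 smaller at an unadjusted p under 0.05 and 0 by DESeq2. With TMM factors from higher genes 3 were larger, and the share of larger genes among all calls went from 18.7% to 7.51%. Nr4a1 (1.45 ± 0.47, adjusted p = 0.039), Nr4a3 (1.88 ± 0.62, adjusted p = 0.038), Nfkbiz (1.86 ± 0.60, adjusted p = 0.039), Klf2 (1.43 ± 0.47, adjusted p = 0.039) and Atf3 (1.06 ± 0.34, adjusted p = 0.032) were called under 2 or 3 scalings and each lost the call without 7 to 11 of the 22 samples. Dusp2, Tnfaip3 and Nfkbia kept theirs without any 1 of the 22. The count of 11 was 4 without macrophage control replicate 1 and 16 without macrophage 3 d replicate 3. Fos (0.60 ± 0.29), Jun (-0.10 ± 0.75), Egr1 (0.70 ± 0.73), Hspa1a (1.34 ± 0.58), Hspa1b (1.06 ± 0.53) and Socs3 (1.40 ± 0.74) were not called.

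At 14 d the direction of most calls turned with the scaling: 1 member was larger and 10 were smaller in macrophages with TMM, and 12 were larger and 3 smaller with TMM factors from higher genes, a choice that moves the median of all genes by 0.85. The background was 36.8% of all genes, 16.9% larger and 19.9% smaller, and 45.9% of all calls were larger with TMM and 88.6% with the other factors. Under all 5 scalings Egr2 (-3.78 ± 0.66, adjusted p = 0.00031; -2.93 with TMM factors from higher genes), Maff (-3.57 ± 0.67, adjusted p = 0.00049; -2.68) and Rhob (-2.67 ± 0.65, adjusted p = 0.0041; -1.77) were smaller and Nr4a1 (1.48 ± 0.47, adjusted p = 0.020; 2.35) was larger, Nr4a1 not without macrophage 14 d replicate 2. In monocytes Egr2 had 26.1, 68.5, 50.9 and 62.4 CPM at 14 d and 13.5, 21.0, 17.0 and 16.4 CPM in control, without overlap and not called (1.61 ± 0.51, adjusted p = 0.074), while in macrophages it was lower. Jund (-2.26 ± 0.70), Ier5 (-1.94 ± 0.66) and Fosb (-1.33 ± 0.35) were called under 3, 1 and 2 scalings, Ier5 not without macrophage 14 d replicate 2 or 3 or monocyte control replicate 2. Fos (-0.69 ± 0.29), Jun (-1.91 ± 0.76), Egr1 (0.02 ± 0.73), Atf3 (-0.67 ± 0.34), Hspa1a (-0.65 ± 0.61), Hspa1b (0.03 ± 0.57) and Socs3 (-0.22 ± 0.74) were not called.

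The heat shock chaperones differed in level. Hspa1a had 9.77 to 23.8 CPM in control monocytes, 5.98 to 14.0 CPM at 3 d and 11.9 to 23.1 CPM at 14 d, and 1.99 to 6.71, 4.42 to 8.67 and 1.52 to 6.05 CPM in macrophages. Hspa1b had 11.7 to 29.7, 7.11 to 13 and 7.13 to 18.1 CPM in monocytes and 3.42 to 9.03, 4.50 to 6.59 and 3.38 to 5.80 CPM in macrophages. Dnajb1 stood higher, at 87.9 to 147 CPM in control monocytes and 48.8 to 66 CPM in control macrophages. Of the 4 chaperones, Dnajb1 in monocytes at 14 d was the 1 called against control under all 5 scalings. Hsph1 had 31.0, 34.4, 40.7 and 59.8 CPM in control monocytes and 20.2, 19.4, 25.3 and 22.4 CPM at 14 d, without overlap and not called (-0.93 ± 0.32, adjusted p = 0.093).

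Genes of the wider heat shock response were counted from a list of 26. In monocytes 9 were lower at 3 d (1 of them under all 5 scalings), where 14.4% of all genes were. At 14 d 7 were lower with TMM (2 under all 5), beside 5.34% of all genes, and heme oxygenase, Hmox1, was higher under all 5 scalings (429 against 232 CPM on average; 0.89 ± 0.15). In macrophages at 14 d 5 were higher, all under 5 scalings, and 9 lower, 1 under all 5, beside 39.4% and 22.9% of all genes. The small heat shock protein Hspb1 had 48.8 against 3.47 CPM on average (3.81 ± 0.35), Hsf1 rose by 0.95 ± 0.19, and the ER chaperone Dnajb9 was the lower gene called throughout (59.8 against 206 CPM; -1.79 ± 0.16).

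Of 26 other feedback inhibitors, 4 were higher and 13 lower in monocytes at 3 d (4 and 7 under all 5 scalings), beside 36.8% and 14.4% of all genes, and 4 higher and 5 lower at 14 d (4 and 4), beside 3.22% and 5.34%. Socs2 had 54.1 against 3.74 CPM on average at 14 d and in control (3.85 ± 0.67), and the ERK phosphatase Dusp6 183 against 562 CPM (-1.62 ± 0.22; -1.64 ± 0.22 at 3 d). Ppp1r15a, the stress-induced eIF2α phosphatase subunit, was lower at 3 d (-1.75 ± 0.21) and 14 d (-1.46 ± 0.21). In macrophages 4 were higher and 1 lower at 3 d, all under 5 scalings, beside 1.05% and 0.224% of all genes, with Rgs1 at 2.09 ± 0.32 and Cish at 1.11 ± 0.20, and 6 were higher and 8 lower at 14 d (6 and 3), beside 39.4% and 22.9% of all genes.

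Of 22 other early response factors, 21 were tested in monocytes. At 3 d 10 were lower, 5 under all 5 scalings, beside 14.4% of all genes, with the repressor Bcl6 at -1.79 ± 0.20. At 14 d 3 were lower, beside 5.34% of all genes, Irf1 (-1.80 ± 0.20), Bcl6 (-1.59 ± 0.20) and Mafk (-1.33 ± 0.20). In macrophages 1 was higher and 1 lower at 3 d, Id2 (0.68 ± 0.15) and Klf10 (-1.0 ± 0.21), beside 1.05% and 0.224% of all genes. At 14 d 5 were higher and 10 lower (5 and 3 under all 5 scalings), beside 39.4% and 22.9% of all genes. The AP-1 member Fosl1 had 99.6 against 6.59 CPM on average in 14 d and control macrophages (3.92 ± 0.38), opposite to Fos and Fosb, and the AP-1 partner Batf was lower (-1.80 ± 0.18).

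Early cytokine and chemokine genes, which these factors are known to drive, were counted from a list of 17. In monocytes 4 were higher and 4 lower at 3 d (4 and 2 under all 5 scalings), beside 36.8% and 14.4% of all genes, and 7 were higher and 1 lower at 14 d, all under 5, beside 3.22% and 5.34%, with a median of 0.78 against 0.09 for all genes. At 14 d the monocyte chemoattractants Ccl7 (301 against 6.10 CPM on average; 5.64 ± 1.09) and Ccl2 (359 against 35.2 CPM; 3.35 ± 0.54) and the growth factor Hbegf (47.0 against 2.37 CPM; 4.31 ± 0.72) were higher and Ptgs2 was lower (-1.40 ± 0.37). In macrophages Il6 (2.93 ± 0.45) and Ccl4 (1.57 ± 0.35) were higher at 3 d, beside 1.05% of all genes. At 14 d 5 were higher and 3 lower, all under 5 scalings, beside 39.4% and 22.9% of all genes, with Ptgs2, the inducible cyclooxygenase, higher (74.8 against 2.27 CPM; 5.05 ± 0.56) and Ccl3 (-1.61 ± 0.22), Osm (-1.43 ± 0.27) and Plaur (-1.37 ± 0.17) lower.

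Of 23 genes tested that carry signals to the early genes, 14 were lower in monocytes at 3 d, beside 14.4% of all genes (1 under all 5 scalings, Rel, -1.24 ± 0.26). At 14 d 4 were lower, beside 5.34% (2 under all 5, Mrtfa, -1.23 ± 0.17, and Rel, -1.01 ± 0.26), and in macrophages at 14 d 9 were lower, beside 22.9% (4 under all 5, with the IL-6 receptor subunits Il6st at -1.94 ± 0.19 and Il6ra at -1.29 ± 0.33). Of 12 other targets of p53, which also drives Btg2 and Cdkn1a, 9 were lower in monocytes at 3 d and 3 at 14 d, beside 14.4% and 5.34% of all genes, 2 each under all 5 scalings, with Pmaip1 at -1.71 ± 0.31 and -2.13 ± 0.31. In macrophages 1 was lower at 3 d, Phlda3 (-0.78 ± 0.15), beside 0.224% of all genes. At 14 d 4 were lower, beside 22.9% of all genes, 1 of them under all 5, Perp (-1.48 ± 0.33). Cdkn1a itself was lower in monocytes at 3 d under 2 scalings (-0.91 ± 0.23, adjusted p = 0.0058) and not called at 14 d (-0.45 ± 0.23, adjusted p = 0.28).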

How the data were processed

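Cells sorted from digested lung were lysed, and poly(A) RNA was sequenced as paired reads (NEBNext Ultra libraries). Per the submitters' processing notes, the authors used STAR 2.7.2c and 2.7.3a, featureCounts 1.6.3, DESeq2 1.26.0 and 1.28.1 and GRCm38; which version made which table, the annotation release and the strand setting are not given in the sources used here. The deposited values are raw counts per gene in 2 tables, 1 for each cell type, with 4610720 to 28789639 counts per sample. More deeply sequenced samples have less counting error.

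The counts were tested in R 4.3.3 with edgeR 4.0.16 (quasi-likelihood test with robust dispersions, filterByExpr, TMM scaling), in each table over its 3 groups, and for interactions and the control cell types in a joint fit of all 22 samples. P-values were adjusted by Benjamini-Hochberg over all genes tested, and calls needed both an adjusted p under 0.05 and a fold above 1.5. Log2 fold changes are given ± SE. CPM of members and other single genes are counts divided by the sample's total in the fit times its TMM factor. Summed CPM of marker and receptor genes are deposited counts divided by the total alone. Summed and single-gene CPM are therefore not on the same scale. TMM factors were 0.841 to 0.921 in control and 1.20 to 1.24 in 3 d monocytes. They were 0.894 to 0.939 in control and 1.17 to 1.29 in 14 d macrophages. The test was checked on simulated counts with a small set of genes changed evenly in both directions, in part with a GC bias added. That setting differs from 3 d monocytes and 14 d macrophages, where most genes were called against control. Named members were, in each comparison, the 6 in each direction with the largest fold changes among those called whose groups did not overlap and whose mean log2 CPM was above 3, with Fos, Jun, Egr1, Atf3, Hspa1a, Hspa1b and Socs3 always given. The members and lists were chosen with earlier results of these data known. Alternatives were other scalings (among them TMM factors from genes above a mean log2 CPM of 5), filters, DESeq2 1.42.0, a replicate block, pairs of groups alone and leaving out each sample. GC offsets, subtraction of the receptor background and the higher-gene TMM factors together with a filter were chosen after seeing the data. Promoters are RefSeq's. Results of some listed genes are not reported here.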

Additional observations from a re-analysis of the deposited data

Results flagged for a closer look

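In groups of 4 samples, 1 sample lay apart from the other 3 by Dixon's 95% limit in 6 of 152 tests (38 members in 4 groups), where chance gives about 1 in 20. In monocytes at 14 d, replicate 1 had the lowest Dusp2 (3.29 CPM) and Ier2 (249 CPM) and replicate 4 the highest Fos (1584 CPM). In monocytes at 3 d, replicate 4 had the lowest Klf2 (36.1 CPM) and Rhob (4.23 CPM), and control replicate 1 had the lowest Egr1 (55.3 CPM).

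The change after tamoxifen, macrophages less monocytes, differed between cell types at 3 d for 11 members with TMM in edgeR's joint fit (log2 differences, all larger in macrophages). These were Dusp2 (2.53), Nr4a3 (1.88), Nfkbiz (1.86), Tnfaip3 (1.65), Nr4a1 (1.45), Klf2 (1.43), Nfkbia (1.09), Junb (1.06), Atf3 (1.06), Zfp36 (0.86) and Dnajb1 (0.81). Of these, Dusp2, Tnfaip3 and Nfkbia were called under all 5 scalings. At 14 d, with TMM, it differed for Egr2 (-3.78), Maff (-3.57), Rhob (-2.67), Jund (-2.26), Ier5 (-1.94), Fosb (-1.33), Zfp36l1 (-1.15), Klf6 (-1.13), Fosl2 (-1.09) and Cdkn1a (-0.98), which were smaller in macrophages, and for Nr4a1 (1.48), which was larger. Of the 14 d calls, those of Egr2, Maff, Rhob and Nr4a1 held under all 5 scalings. With TMM factors from higher genes 12 members were larger and 3 smaller. Jund shares exon bases with a gene that was not counted alike in the 2 cell types.

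Signals outside the members were seen too. Y-linked genes had at least 433 counts in 14 d macrophages and 1949 in 14 d monocytes, and 3 at most in control and 3 d samples. Olfactory and vomeronasal receptor genes summed to at least 682 CPM in 14 d macrophages and 875 CPM in 3 d monocytes, and to 236 CPM at most in the other groups.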

How the results depend on the processing

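In monocytes at 3 d, 18 members were called, and 11 by library size, 8 with TMM factors from higher genes, 8 with GC offsets and the replicate block, and 5 with TMM factors from higher genes and a filter at mean log2 CPM above 1. In monocytes at 14 d, 8 were called, and 14 by DESeq2. Between 3 d and 14 d, 9 were called, and 3 by library size, 5 with background reads subtracted and 2 each by upper quartile, by TMM factors from higher genes with or without the filter, by the filter alone and by GC offsets with or without the block. In macrophages at 3 d, 1 was called, and 10 by DESeq2, 5 without a filter, 4 each with TMM factors from higher genes, the block, GC offsets and both of these, 3 each with the filter, the filter with those TMM factors and only the groups compared, and 2 each by relative log expression, library size and upper quartile. In macrophages at 14 d, 23 were called, and 15 with GC offsets and the block; between 3 d and 14 d 16, and 9 with GC offsets. For the cell type difference at 3 d, 11 were called, and 3 each by library size, TMM factors from higher genes with or without the filter and the filter alone, 5 with GC offsets and 4 with background subtracted. At 14 d the members larger and smaller in macrophages were 1 and 10 with TMM, 6 and 6 by relative log expression, 11 and 3 by library size, 11 and 4 by upper quartile and 12 and 3 with TMM factors from higher genes. The cause of these changes was not tested. GC offsets, background subtraction and the combined filter were chosen after seeing the data.

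Leaving out 1 sample at a time gave 15 to 24 members in monocytes at 3 d, 7 to 10 at 14 d, 4 to 18 between them, 0 to 12 in macrophages at 3 d, 20 to 25 at 14 d, 15 to 18 between them, 4 to 16 and 9 to 14 for the cell type difference at 3 d and 14 d, and 26 to 32 between control cell types. Of 3353 values of single members under an alternative, 3116 stayed on their side of the threshold, of which 131 were uncalled values that changed sign, 57 passed the threshold only there and 180 lost it.

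The replicate numbers were not taken to pair samples. Between control and 14 d monocytes the mean correlation of deviations was 0.40 for the same number and -0.13 for other numbers, with 1 pair at -0.04 and 1 at 0.67, and 6 of 8 samples correlated best with their own number. In the other pairs of groups the mean was 0.07 or less, down to -0.52 for 1 pair. With the replicate block 18, 8 and 9 members were called in the 3 monocyte comparisons, 4, 23 and 17 in the macrophage ones, 10 and 11 for the cell type difference at 3 d and 14 d, and 23 between control cell types. The members called were not all the same ones: by edgeR with the block, the calls of Hspa1b in monocytes at 3 d (adjusted p = 0.056), Ier3 in monocytes at 14 d (adjusted p = 0.050), Jund, Maff and Rhob between 3 d and 14 d monocytes, Socs3 in macrophages at 14 d (adjusted p = 0.14), Nr4a3, Nfkbiz, Klf2 and Atf3 for the cell type difference at 3 d (adjusted p = 0.061, 0.078, 0.075 and 0.062) and Ier5 at 14 d (adjusted p = 0.059), and Ier2, Nr4a2, Dusp2, Zfp36l1, Klf2, Nfkbiz, Gadd45b and Socs3 between control cell types, were lost. Among the calls gained was that of Hspa1a for the cell type difference at 3 d (adjusted p = 0.034) and between 3 d and 14 d macrophages (adjusted p = 0.042). Depth was lowest in 14 d macrophages and limits the precision of low members: Hspa1a had 9 counts in its lowest macrophage sample.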
